A study of Mus musculus with 12 samples.

Results

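The liver transcript table contained 152210 rows, of which 8149 were assembled from the reads and carried no reference transcript identifier. Of these, 511 (6.27%), whose FPKM averaged 1 or more across the 12 livers, are described here, and the other 7638 averaged less. FPKM is the number of sequenced fragments scaled to the transcript length in kilobases and to the fragments mapped in the library. The members were chosen by their measured mean FPKM, so the levels are given as a description. The members just inside the limit had mean FPKM values of 1, 1.003 and 1.003, and the rows just outside had 0.9961, 0.9963 and 0.9983. The members came from 409 assembled loci, 57 of which held more than 1 member and the richest of which held 7, so members of a locus share reads.

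The livers came from male C57BL/6J mice, individually housed and 21 weeks old, that had been fed for 16 weeks and fasted before sampling. There were 4 groups of 3 mice: ND, a normal diet (mice 2, 3 and 4); HFD, a high-fat diet (mice 12, 15 and 18); CLE, the high-fat diet with 1.5% by weight of an ethanol extract of Chrysanthemum morifolium leaves (mice 2, 4 and 11); and LU, the high-fat diet with 0.003% luteolin, a flavone of the plant (mice 2, 3 and 8). Summed FPKM of the 9 hepatocyte markers was between 50258 and 80298 in every liver, in spite of albumin being listed at 0 in 11 of 12. This sum was 50258 to 53508 FPKM in ND and 53297 to 69707 FPKM in HFD, which overlapped slightly. Summed markers of 4 other cell types were higher in every HFD mouse than in every ND mouse, at 92.5 to 106 FPKM in ND and 134 to 202 FPKM in HFD for macrophages, 78.6 to 108 and 125 to 161 FPKM for stellate cells, 56.8 to 66.7 and 71.7 to 75.7 FPKM for sinusoidal endothelium, and 108 to 145 and 171 to 218 FPKM for erythroid cells, while those of cholangiocytes and lymphocytes overlapped. The exocrine pancreas list went the other way, at 12.5 to 15.2 FPKM in ND and 9.13 to 11.7 FPKM in HFD, and rested on Cela1, as its other genes were near 0. Other lists also leaned on few genes. Over the 12 livers the median was 102 FPKM for Dcn in the stellate list. In the macrophage list it was 71.6 FPKM for Cd5l and 47.3 FPKM for Clec4f. Adipocyte markers were at most 0.107 FPKM in ND, 0.0369 FPKM in HFD and 0.172 FPKM in CLE, and at 0.827 to 1.27 FPKM in LU. HFD and ND were without overlap in 24.2% of all tested rows. The part of these cell types in the differences below was not tested.

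An assembler joins overlapping reads into transcripts and then looks for a known transcript with the same structure, and rows without one can be long noncoding RNAs, extensions of known genes, copies of repeated elements or fragments of abundant RNA that map to more than 1 place. Long noncoding RNAs are transcribed by the same polymerase as coding genes, are often spliced, and are usually more restricted to a tissue and lower in level than messenger RNAs. Ribosomal RNA makes up most of the RNA of a cell and is largely removed when polyadenylated RNA is selected. Processed pseudogenes are copies of messenger RNAs that were inserted back into the genome.

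The known part of the table determined what could count as unreferenced. Of the 77000 known rows found in the GENCODE M21 annotation of GRCm38, 96.7% belonged to protein-coding genes, and 87.6% had the same start and end there. The files name no build, and positions below are as deposited. In M21, 311 members overlapped an annotated gene, and for 266 of them that gene had no row in the table. The overlapped genes were lincRNA genes for 136 members, protein-coding genes for 55, antisense genes for 28 and processed transcripts for 27. Of the 200 members without an M21 overlap, 83 overlapped a RefSeq gene and 117 overlapped neither. Thus 204 members overlapped a gene on the same strand, 32 only on the opposite strand and 75 without a strand of their own. A further 62 lay within 5 kb before a gene start, 49 within 5 kb after a gene end, and 89 further away, at a median of 12.8 kb. The library kit does not mark the strand, so strand alone cannot separate reads of the 32 opposite-strand rows from reads of the overlapped gene.

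Strand and length separated 2 kinds of row. The 315 members with an assigned strand had a median genomic span of 6925 bases, and the 196 without a strand had a median of 960.0 bases. Over all members the span ran from 107 to 290661 bases with a median of 3745, and the mean level ran from 1.00 to 1891484 FPKM with a median of 2.02. The high levels were among the short rows. Of the 511 members, 78 spanned less than 500 bases, but these were 22 of the 55 with a mean of at least 10 FPKM, 16 of the 20 with at least 100 FPKM, 13 of the 14 with at least 1000 FPKM and all 9 with at least 10000 FPKM. Most members were low, 413 of them under 5 FPKM, and 433 were above 0.1 FPKM in all 12 mice. Chromosome 12 held the most members with 45, and chromosomes X and Y held 3 and 2. The plot of span against level shows this corner of short, high rows.

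**Figure D1:**
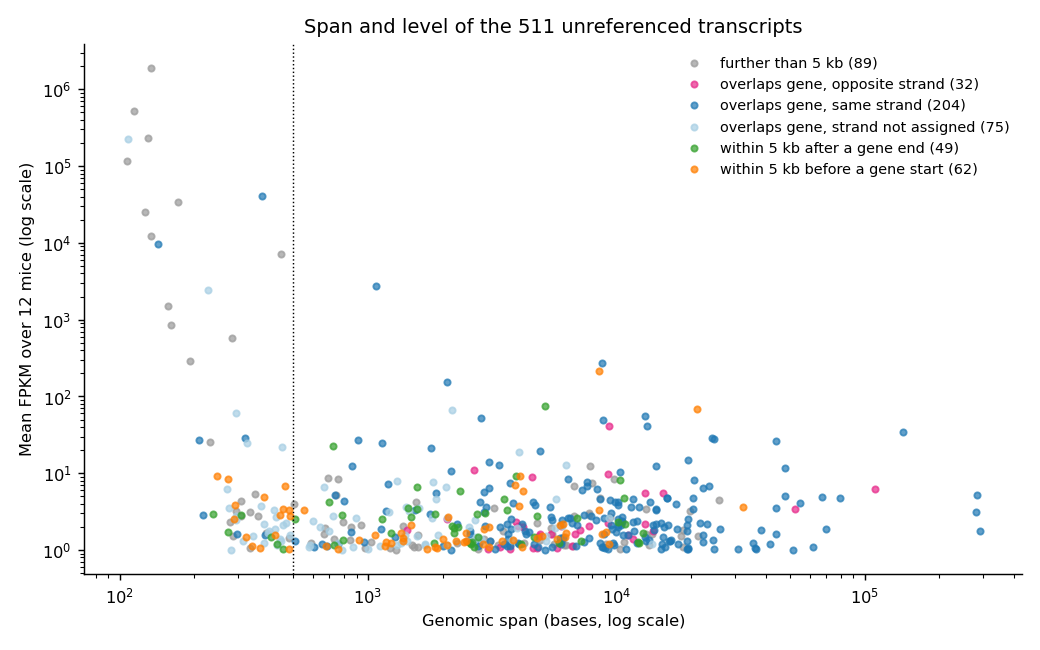
Each point is 1 of the 511 unreferenced transcripts, with its genomic span in bases on the x axis and its mean FPKM over 12 mice on the y axis, both on log scales, coloured by position relative to M21 genes. All 9 rows above 10000 FPKM lie left of the dotted line at 500 bases, and most of the rest lie near a median of 2.02 FPKM at all spans.

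The rule keeps only rows without a reference transcript, which bears on the starts that members can have, so their 5′ ends are given as a description. Of the 299 stranded members on chromosomes with RefSeq start sequences, 88 (29.4%) began within 250 bases of the start of a RefSeq gene on their own strand, 40 of them within 50 bases, at 56 genes. For 82 of the 88 the gene was a long noncoding RNA and for 6 it was protein coding. Another 13 began within 250 bases of a RefSeq start on the other strand, 7 of which were also among the 88. The sequences at the starts of 5 such genes are printed, from 250 bases before to 50 bases after the RefSeq start in GRCm38.p6. Transcripts of BC024386, LOC115486416, Gm34654 and 4833411C07Rik were picked from those that passed in HFD against ND below. That of Gm39859 was among the highest stranded rows. Capitals mark, on either strand, TATAAA (the TATA box), CCAAT (the CCAAT box) and CACGTG (an E-box), which do not overlap here.
BC024386 (chr7:140905771-140906070, plus strand): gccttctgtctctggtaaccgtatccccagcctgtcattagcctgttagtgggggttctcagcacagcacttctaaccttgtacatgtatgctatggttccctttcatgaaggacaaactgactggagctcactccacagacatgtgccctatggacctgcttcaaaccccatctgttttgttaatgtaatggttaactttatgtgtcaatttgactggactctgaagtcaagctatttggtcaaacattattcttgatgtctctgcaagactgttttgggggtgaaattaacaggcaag
LOC115486416 (chr4:127522136-127522435, plus strand): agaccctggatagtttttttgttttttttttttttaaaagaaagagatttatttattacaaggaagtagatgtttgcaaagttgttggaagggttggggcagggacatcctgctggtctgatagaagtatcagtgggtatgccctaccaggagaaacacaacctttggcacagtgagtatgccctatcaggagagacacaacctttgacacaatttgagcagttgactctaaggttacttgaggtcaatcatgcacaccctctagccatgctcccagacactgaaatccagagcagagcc
Gm34654 (chr9:77851855-77852154, minus strand): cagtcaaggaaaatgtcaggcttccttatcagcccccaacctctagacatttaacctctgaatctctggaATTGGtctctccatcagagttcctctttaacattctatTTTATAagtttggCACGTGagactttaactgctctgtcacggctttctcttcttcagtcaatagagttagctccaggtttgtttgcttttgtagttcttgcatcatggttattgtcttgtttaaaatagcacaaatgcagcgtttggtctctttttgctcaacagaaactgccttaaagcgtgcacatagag
4833411C07Rik (chr8:10899672-10899971, plus strand): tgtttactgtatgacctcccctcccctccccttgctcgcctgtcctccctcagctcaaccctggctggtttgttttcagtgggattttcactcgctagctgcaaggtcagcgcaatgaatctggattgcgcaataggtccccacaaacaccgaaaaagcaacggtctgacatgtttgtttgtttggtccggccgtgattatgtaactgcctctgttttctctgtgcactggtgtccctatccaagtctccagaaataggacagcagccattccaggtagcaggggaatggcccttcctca
Gm39859 (chr2:75658888-75659187, minus strand): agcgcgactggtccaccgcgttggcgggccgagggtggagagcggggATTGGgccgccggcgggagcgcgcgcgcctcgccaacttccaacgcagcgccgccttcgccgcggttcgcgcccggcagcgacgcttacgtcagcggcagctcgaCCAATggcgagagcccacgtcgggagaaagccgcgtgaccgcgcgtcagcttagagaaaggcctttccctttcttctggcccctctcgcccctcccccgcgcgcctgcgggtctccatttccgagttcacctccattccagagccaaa

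CUFF.24253.7 began at the RefSeq start of BC024386, CUFF.18376.3 began 5 bases after that of LOC115486416, and CUFF.14424.3 began 14 bases before that of Gm39859 (an offset of -14 bases). The offsets of CUFF.26848.11 and CUFF.24439.2 were -57 bases from Gm34654 and -186 bases from 4833411C07Rik. The Gm34654 window held all 3 motifs, the Gm39859 window held CCAAT on both strands in a sequence of 69.7% G and C, and the other 3 windows held none. The TATA box letters were present in 19.3% of the 57 windows beside members and in 13.6% of all 32851 windows, those of the CCAAT box in 43.9% and 37.4%, and those of the E-box in 7.02% and 7.15%. A match of letters is a description and does not show a bound factor.

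**Figure D2:**
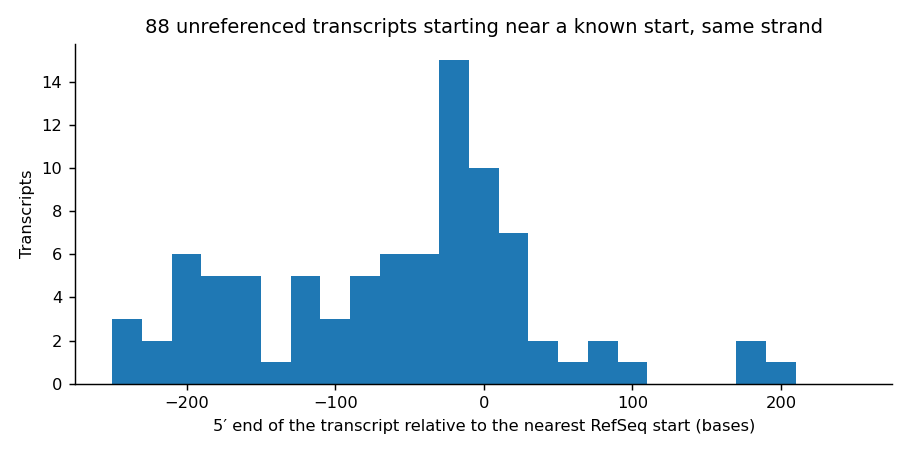
Histogram of the 88 transcripts by the distance of their 5′ end from the nearest RefSeq start on the same strand, in bins of 20 bases, negative before the start. The tallest bars lie close to 0, and 40 transcripts are within 50 bases.

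The 9 extreme rows each held at least 1% of the summed FPKM of at least 1 library. The nearest rows to that limit were CUFF.15878.1 and CUFF.21201.1 inside, at up to 1.43% and 1.44% of a library, and CUFF.11291.1 and CUFF.15873.1 outside, at up to 0.479% and 0.238%. The extreme rows spanned 107 to 374 bases, beside sequenced reads of 100 bases, and 8 of the 9 carried no strand. The highest, CUFF.9758.1 (chr16:17222316-17222449, 134 bases, 8334 bases from Rimbp3), carried the protein name ART2. CUFF.807.1 (chr1:122357128-122357241) carried the name TAR1-C. ART2 and TAR1 are small yeast proteins whose reading frames lie antisense to ribosomal RNA genes. CUFF.734.1 (chr1:102628206-102628335), CUFF.21201.1 (chr6:49236446-49236617), CUFF.15868.1 (chr2:181917629-181917754) and CUFF.15878.1 (chr3:8246300-8246433) had no name and no M21 overlap, nor had CUFF.17255.1 (chr4:9257387-9257493), which lay inside the RefSeq gene Clvs1. CUFF.15868.1 overlapped the RefSeq long noncoding RNA Gm40034. CUFF.1995.1 (chr10:45875286-45875659) and CUFF.1996.1 (chr10:45875967-45876074) lay side by side in Gpx4-ps2, a processed pseudogene.

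CUFF.1995.1 and CUFF.1996.1 carried the letters of a second gene. Gpx4 encodes glutathione peroxidase 4, which reduces lipid hydroperoxides in membranes. Of CUFF.1995.1, 369 of the 374 bases were held by an M21 transcript of the pseudogene, and all 369 aligned to a Gpx4 transcript with 1 mismatch (99.7% identity). Of the 108 bases of CUFF.1996.1, 100 aligned to Gpx4 without a mismatch. As words of 31 bases, 90.9% and 89.7% of the pseudogene sequence recurred in Gpx4. Reads within the first stretch printed would match both genes, apart from the mismatch. The second stretch, of 30 bases, is shorter than a read. The first begins at the first ATG of CUFF.1995.1, with the mismatch to Gpx4 in capitals, and the second is from the end of CUFF.1996.1, with the polyadenylation signal AATAAA in capitals.
CUFF.1995.1 (chr10:45875333-45875572, plus strand): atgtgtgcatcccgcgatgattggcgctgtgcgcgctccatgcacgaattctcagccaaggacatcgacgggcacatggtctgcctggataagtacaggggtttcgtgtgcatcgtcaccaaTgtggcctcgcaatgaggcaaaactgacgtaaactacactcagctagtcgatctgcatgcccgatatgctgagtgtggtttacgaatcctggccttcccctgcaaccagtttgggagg
CUFF.1996.1 (chr10:45876040-45876069, plus strand): cttgtgggAATAAAatgtagaaatgtgaaa

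The 8 Gpx4 rows of the table summed to 189.6 to 211 FPKM in ND, 282 to 356 FPKM in HFD, 284 to 355 FPKM in CLE and 273 to 369 FPKM in LU. CUFF.1995.1 alone was listed at 36040, 36774 and 19208 FPKM in the ND mice and at 52831, 47799 and 74280 FPKM in the HFD mice. All HFD mice were above all ND mice for both. The levels of the pseudogene rows are therefore uncertain as levels of the pseudogene.

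The level of CUFF.9758.1 was 2050000, 1530000 and 817802 FPKM in ND, 2050000, 1690000 and 1660000 FPKM in HFD, 1430000, 3500000 and 2060000 FPKM in CLE, and 2200000, 2410000 and 1300000 FPKM in LU. The groups overlapped in all pairs. CUFF.807.1 was listed at 376470, 237455 and 302105 FPKM in ND and at 459928, 384077 and 541643 FPKM in HFD, groups that did not overlap but whose difference did not pass (adjusted p = 0.487, limma). In all, 5 of the 9 extreme rows were without overlap between HFD and ND, namely CUFF.807.1, CUFF.734.1, CUFF.17255.1, CUFF.1995.1 and CUFF.21201.1, all higher in HFD, beside 24.2% of all tested rows. Single mice carried much of the level of 3 rows. For CUFF.17255.1, HFD mouse 12 was at 434158 FPKM beside 58835 and 57476 FPKM in the other HFD mice. For CUFF.15868.1 and CUFF.15878.1, LU mouse 3 was at 118757 and 61088 FPKM, and the other LU mice were at 4921 and 6560 FPKM and at 7023 and 7093 FPKM. CUFF.15878.1 was listed at 0 in HFD mouse 12. CLE mouse 4 was highest in 5 of the 9 rows, and ND mouse 4 was lowest in 5.

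No extreme row passed in HFD against ND (lowest adjusted p = 0.126), in CLE against HFD (0.226) or in LU against HFD (0.109) in limma. The 2 lowest of these, HFD against ND and LU against HFD, belonged to CUFF.1995.1, with log2 differences of 0.96 (SE 0.29) and -0.89 (SE 0.29).

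**Figure D3:**
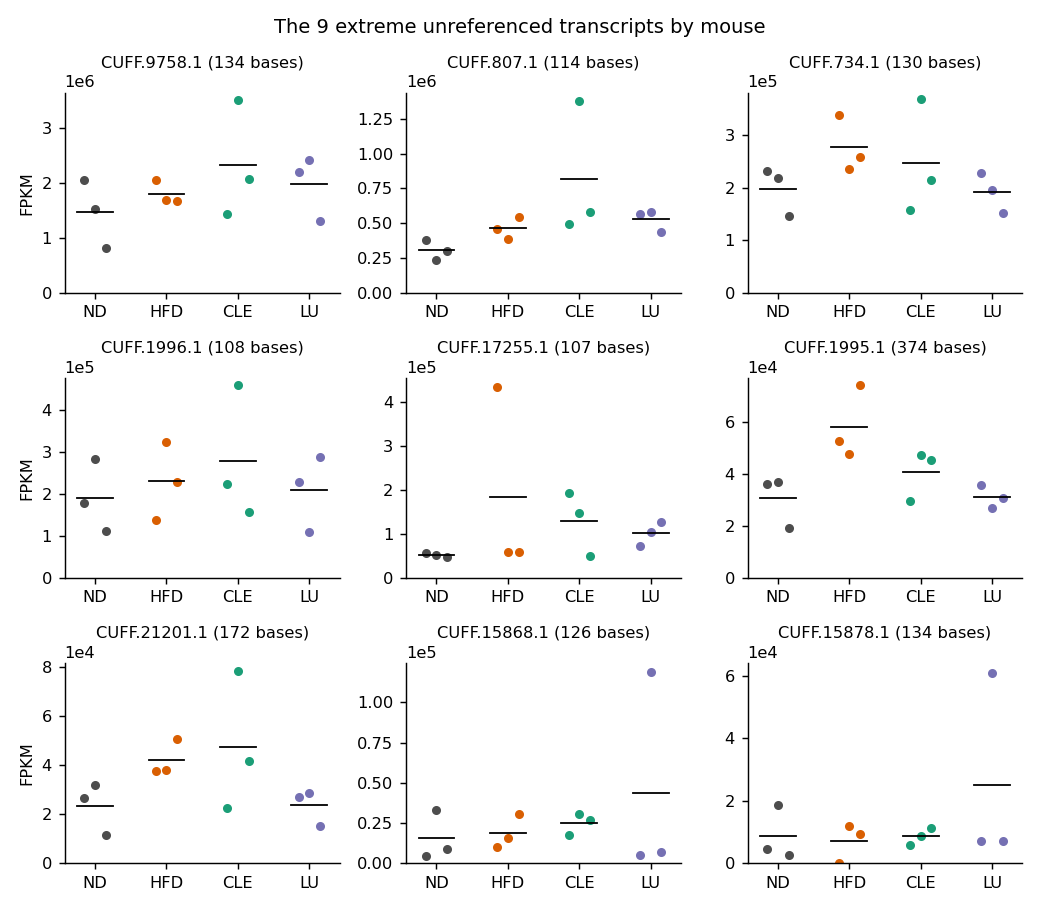
FPKM of the 9 extreme rows in each mouse, 1 panel per row on a linear scale from 0, with points for the 3 mice of each group and a line at the group mean. Single mice stand apart for CUFF.17255.1 (HFD mouse 12 at 434158 FPKM) and for CUFF.15868.1 and CUFF.15878.1 (LU mouse 3), and ND and HFD do not overlap in 5 of the 9 panels.

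The 9 extreme rows held most of every library's summed FPKM. Their share was 83.5%, 81.3% and 71.8% in ND, 84.2%, 82.6% and 82.8% in HFD, 81.3%, 89.4% and 83.2% in CLE, and 84.3%, 85.0% and 79.5% in LU. CUFF.9758.1 alone held 40.1% to 57.8%. The other 502 members held 0.540% to 0.958%, and the 144061 referenced rows held 9.60% (CLE mouse 4) to 27.3% (ND mouse 4). The extreme share overlapped between every pair of groups. These shares are made of the values that chose the rows and are given without a test.

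The share of FPKM is not a share of fragments. Multiplied by span, the extreme rows came to 190702 to 775730 nominal fragments per 1000000. Known referenced rows, by their exonic lengths in M21, came to 743169 to 807447, and the sum of both exceeded 1000000 in 11 of the 12 libraries. Fragments per 1000000 cannot exceed 1000000, so these products cannot be read as fragment counts. Counted as FPKM times span over all rows, introns included, the extreme share was 2.66% in ND and 3.38% in HFD on average. Any unit that divides by the summed FPKM, as TPM does, would follow these 9 rows. Summed FPKM of the referenced rows ran from 538328 to 645999 and that of the extreme rows from 1466792 to 6019320.

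**Figure D4:**
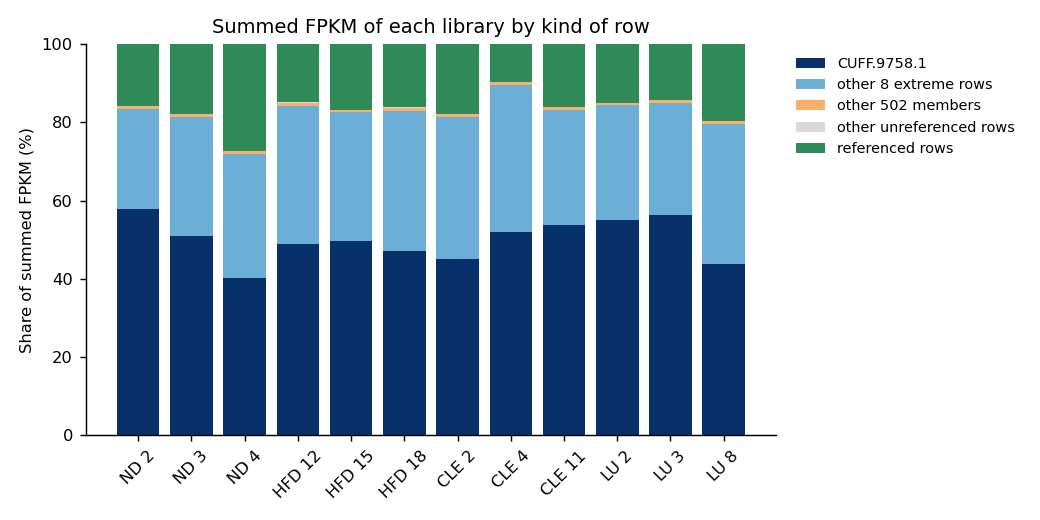
Stacked bars of each library's summed FPKM in percent, 1 bar per mouse, split into CUFF.9758.1, the other 8 extreme rows, the other 502 members, the remaining unreferenced rows and the referenced rows. The blue extreme rows take 71.8% to 89.4% of every bar, and the referenced rows are smallest in CLE mouse 4.

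Below the extreme rows, the highest members were again mostly short rows. CUFF.11291.1 (chr17:39848689-39848831, minus strand) and CUFF.11292.1 (chr17:39846146-39847226, minus strand) overlapped CT010467.1, an M21 gene typed as ribosomal RNA, and the second also overlapped the RefSeq pseudogene Rn18s-rs5 of 18S ribosomal RNA. Of the 143 bases of CUFF.11291.1, 139 were held by a CT010467.1 transcript. They are printed to show the base composition, 74.1% G and C. None of their words of 31 bases, searched as printed only, recurred in another M21 gene. An exon of the M21 lincRNA gene Gm42418 overlapped this row on the other strand, which the search did not cover.
CUFF.11291.1 (chr17:39848689-39848827, minus strand): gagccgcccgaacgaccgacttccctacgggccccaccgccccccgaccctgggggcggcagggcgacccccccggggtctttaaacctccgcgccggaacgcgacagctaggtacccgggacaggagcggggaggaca

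CUFF.11291.1 was at 3276, 3491 and 4312 FPKM in ND, 15824, 5899 and 15883 FPKM in HFD, 7796, 32252 and 11905 FPKM in CLE, and 5994, 4026 and 6986 FPKM in LU. Every ND mouse lay below every HFD mouse, where 24.2% of all tested rows were likewise without overlap in one direction or the other, and the difference did not pass (adjusted p = 0.139, limma). CLE mouse 4 was the highest. CUFF.11292.1, nearby on the same strand, varied less, from 1436 to 4483 FPKM. CUFF.15873.1 (chr3:5860333-5860778) ran from 4000 to 12350 FPKM and CUFF.6348.1 (chr13:9834304-9834531) from 1223 to 4393 FPKM, both highest in CLE mouse 4. The other rows among the 8 highest were CUFF.12523.1 on chromosome 18 (342 to 4498 FPKM), CUFF.23291.1 on chromosome 7 (171 to 2625 FPKM), CUFF.20838.1 on chromosome 6 (388 to 793 FPKM) and CUFF.19085.1 on chromosome 5 (61.6 to 829 FPKM), which carried the name IN of a retroviral integrase.

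Summed FPKM of the other 502 members was 19281 ± 3476 in ND, 29644 ± 8236 in HFD, 39593 ± 21193 in CLE and 23746 ± 2032 in LU (mean ± SD, n = 3 mice in each group), and 27470 in CLE without mouse 4. It too is made of the values that chose the rows. Members with a mean of at least 100 FPKM carried most of it, 13731 to 61033 FPKM, and the rest carried 1884 to 2806 FPKM. CLE mouse 4 was the highest mouse in 128 of the 511 members (25%) and in 24.3% of all tested rows.

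The spread between mice of a group was compared with that of referenced rows of the same level. Between 1 and 2 FPKM, the median within-group SD on the log2(FPKM + 1) scale was 0.290 over 250 members and 0.347 over referenced rows. Between 5 and 20 FPKM it was 0.403 over 56 members and 0.287 over referenced rows, and between 20 and 1000 FPKM it was 0.440 over 28 members and 0.235. Above 5 FPKM the typical member thus varied more between mice than the typical referenced row of like level, which was not tested. An example is CUFF.6053.1 over Serpina4-ps1, a serpin pseudogene, which was at 323 FPKM in ND mouse 3 and at 19.3 and 17.3 FPKM in the other ND mice.

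The diet was compared by limma on log2(FPKM + 1) over all 25296 rows that averaged 1 FPKM or more, with Benjamini-Hochberg adjustment over all of them. In HFD against ND 40 members passed, at 30 loci, 13 higher and 27 lower in HFD. Of the 40, 4 averaged less than 1 FPKM over the other 3 groups and so were members through their highest group, and without them 36 were left, 11 higher and 25 lower. The 40 were 7.83% of the members, and 2.10% of all tested rows passed, 1.48% higher (375 rows) and 0.621% lower (157 rows). The 40 differed without overlap between groups, as did 193 of all 511 members (37.8%) and 24.2% of all tested rows. The median log2 difference was 0.11 over members and 0.08 over all rows. The members that overlapped a lincRNA gene gave 21 of the 40 calls from 136 rows (15.4%). These 21 came from 12 loci, and members of a locus share reads, so they are not separate results. Sorted by position, the 32 opposite-strand members gave 6 (18.8%), at 5 loci. The 94 retroelement-named members gave 1, and the extreme rows gave 0 (lowest adjusted p = 0.126, 1 row at an unadjusted p under 0.05, as had 3803 of all 25296 tested rows). In bulk liver, fewer cells that carry a transcript and less RNA per cell cannot be told apart.

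A locus on chromosome 18 (chr18:46628647-46643036) over AC127342.1, called Gm3734 in RefSeq, held the largest log2 fall among the members that passed. All 4 of its members passed. CUFF.12218.4, the highest, was at 697, 657 and 576 FPKM in ND and at 128, 134 and 97.6 FPKM in HFD. CUFF.12218.3 fell from 115, 73.8 and 107 FPKM to 23.7, 7.5 and 13 FPKM, a log2 difference of -2.78 (SE 0.46, adjusted p = 0.0129, limma). Every ND mouse was above every HFD mouse. Summed over the 4 members, the CLE mice were at 245, 199 and 260.4 FPKM and the LU mice at 255, 273 and 72.0 FPKM, beside 158, 144 and 116 FPKM in HFD.

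CUFF.26985.7 (chr9:95581510-95591321, plus strand) overlapped Gm32542 and lay 13487 bases from Paqr9, a membrane receptor of the progestin and adipoQ receptor family whose name the row carried. It was at 25, 18.8 and 18.5 FPKM in ND and 1.74, 4.61 and 3.02 FPKM in HFD, a log2 difference of -2.45 (SE 0.31, adjusted p = 0.00298, limma). In CLE and LU it ran from 2.63 to 6.33 FPKM, below every ND mouse in all 6.

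A pair of neighbouring loci on chromosome 8 also fell in HFD. All 4 members over B930025P03Rik and Gm45044 (chr8:10870044-10892345, minus strand) passed, and they summed to 21.3, 16.6 and 25.3 FPKM in ND and 3.46, 1.83 and 1.91 FPKM in HFD. Of these 4, CUFF.24436.2 reached the minimum of 1 FPKM only through its highest group, ND, so the sums are given as a description. CUFF.24439.2 over 4833411C07Rik (chr8:10899736-10908686, plus strand), whose start region is printed above, was at 2.99, 2.98 and 3.40 FPKM in ND and 1.22, 0.991 and 0.954 FPKM in HFD. Its log2 difference was -1.01 (SE 0.17, adjusted p = 0.0135, limma). The 5 members of that locus summed to 20.2, 17.6 and 26.3 FPKM in ND, 10.1, 7.51 and 6.30 FPKM in HFD, 14.6, 14.1 and 9.28 FPKM in CLE, and 10.5, 10.3 and 12.5 FPKM in LU. CUFF.24442.1, assembled inside CUFF.24439.2 on the other strand, fell as well, and with an unstranded kit strand alone cannot separate the reads of the pair.

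On chromosome 9 the 5 members at the locus of Gm34654 (chr9:77800731-77851961) summed to 42.7, 33.9 and 47.7 FPKM in ND and 3.69, 9.21 and 8.14 FPKM in HFD. Of these, 2 passed. CUFF.26848.3 reached the minimum of 1 FPKM only through its highest group, ND, so the sums are given as a description. CUFF.26848.11 fell by 2.29 on the log2 scale (SE 0.35, adjusted p = 0.00903, limma). It also overlapped 5424 bases of the M21 lincRNA gene Gm47818 on the opposite strand. On chromosome 10, CUFF.2879.1 over A730063M14Rik, CUFF.2893.1, which overlapped both this gene and Agap2, a GTPase-activating protein gene, and CUFF.2895.1 inside Agap2 lay side by side, and all 3 fell. CUFF.2879.1 was at 3.45, 3.65 and 3.09 FPKM in ND and at 0.921, 0.677 and 0.635 FPKM in HFD. CUFF.11203.1, a retroelement-named row (pol) 3506 bases after H2-Q10, the gene of a class I protein secreted by the liver, fell from 135, 80.7 and 135 FPKM to 37.1, 26.3 and 28.3 FPKM (log2 difference -1.88, SE 0.41, adjusted p = 0.0433, limma). It was at 117, 95.6 and 40.3 FPKM in CLE and at 65.9, 44.2 and 104 FPKM in LU.

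Among the members higher in HFD, CUFF.24253.7 over BC024386 (chr7:140906021-140907901, plus strand) was at 0.568, 1.75 and 1.03 FPKM in ND and 13.4, 14.1 and 6.76 FPKM in HFD, a log2 difference of 2.53 (SE 0.48, adjusted p = 0.0244, limma). It was the only 1 of 6 members of its locus to pass. The locus summed to 198, 236 and 220.1 FPKM in ND and 297, 250.1 and 239.7 FPKM in HFD, and its highest row, CUFF.24253.4, averaged 122 FPKM in ND and 118 FPKM in HFD. CUFF.5778.3 (chr12:79766866-79814441), inside Rad51b, a gene of recombination repair, was at 0.519, 0.803 and 0.703 FPKM in ND and 7.47, 11.6 and 6.17 FPKM in HFD (log2 difference 2.45, SE 0.47, adjusted p = 0.0252, limma). CUFF.18376.1 over LOC115486416 (chr4:127522216-127532549) was at 2.51, 3.10 and 5.42 FPKM in ND, 13.8, 10.6 and 13.8 FPKM in HFD, and 11.4 to 15.7 FPKM in the 6 mice on CLE or LU. For this row the 9 mice on the high-fat diet all lay above ND. CUFF.17040.1 over Gm6135 (chr3:133789239-133791531) was at 0.836, 1.23 and 0.578 FPKM in ND and 4.81, 6.93 and 3.73 FPKM in HFD.

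**Figure D5:**
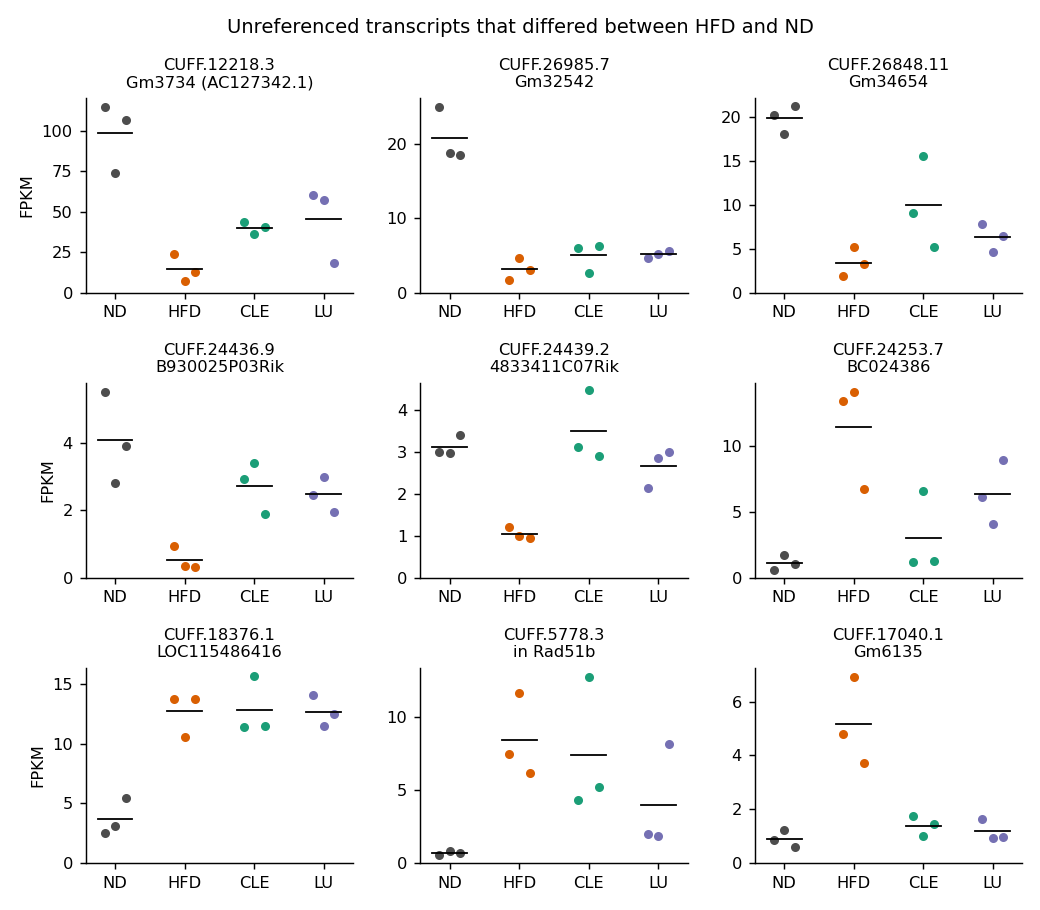
FPKM of 9 members that passed in HFD against ND, 1 panel each on a linear scale from 0, with points for the 3 mice of a group and a line at the group mean. The first 5 panels in reading order are lower in HFD than in ND and the last 4 are higher, without overlap. CLE and LU lie near HFD for LOC115486416 and Gm32542 and near ND for the plotted rows CUFF.17040.1 (Gm6135) and CUFF.24439.2 (4833411C07Rik).

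The count rested on every mouse of the pair. Without ND mouse 2, 3 or 4 it was 16, 26 or 15, and without HFD mouse 12, 15 or 18 it was 17, 25 or 19. Over all tested rows the 532 calls fell to between 226 and 376 in the same fits. With each library scaled to the same sum over all rows, which lets the extreme rows set the scale and moves the median of all rows from 0.08 to -0.21, 24 members passed, 3 higher and 21 lower, and of all 25296 rows 154 passed, 51 higher and 103 lower.

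The extract was compared with the high-fat diet alone. In CLE against HFD 17 members passed, at 15 loci, 12 higher and 5 lower in CLE. Without the 5 that averaged less than 1 FPKM outside their highest group, 12 were left, 9 higher and 3 lower. The 17 were 3.33% of the members, and 4.34% of all tested rows passed, 2.09% higher and 2.26% lower. Non-overlapping groups were found for 29.4% of members and 30.5% of all rows. The median log2 difference was 0.10 over members and 0.03 over all rows. The HFD mice served both in this comparison and in that with ND, so their values enter both.

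CUFF.21960.1 (chr6:122171420-122171665), 4350 bases before Mug-ps1, a murinoglobulin pseudogene, was at 17.8, 9.45 and 9.31 FPKM in CLE and at 4.40, 0 and 0 FPKM in HFD, a log2 difference of 2.85 (SE 0.64, adjusted p = 0.0400, limma), on which the 2 listed zeros bear. CUFF.12219.1 (chr18:46641098-46645689) overlapped 1873 bases of AC127342.1 (Gm3734) and the end of CUFF.12218.1, both on the other strand. CUFF.12219.1 was at 9.43, 9.96 and 9.71 FPKM in CLE and 2.09, 1.02 and 2.81 FPKM in HFD (log2 difference 1.89, SE 0.43, adjusted p = 0.0410, limma). CUFF.12218.1 was at 10.8, 13.8 and 12.7 FPKM in CLE and at 3.89, 2.24 and 2.43 FPKM in HFD. With an unstranded kit, strand alone cannot separate the reads of these 2 rows where they overlap, so they are not separate results. All 3 rows were without overlap.

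CUFF.13177.4 (chr19:37254123-37264936), over 4931408D14Rik and 3807 bases after Ide, the gene of insulin-degrading enzyme, was at 3.29, 4.52 and 4.31 FPKM in CLE and 0.820, 0.0420 and 1.17 FPKM in HFD. The 3 members of its locus summed to 14.9, 7.81 and 9.09 FPKM in CLE and to 10, 7.44 and 7.21 FPKM in HFD, which overlapped. The lower rows included CUFF.23164.1 over Gm45086 (chr7:48685514-48727168), which reached the minimum of 1 FPKM through HFD alone, with a mean of 0.526 FPKM over the other groups, at 0.254, 0.429 and 0.686 FPKM in CLE and 2.0, 3.52 and 4.02 FPKM in HFD, and CUFF.17040.1 over Gm6135, at 1.75, 0.997 and 1.43 FPKM in CLE. CUFF.24439.2 had the lowest adjusted p of the members, at 3.11, 4.47 and 2.90 FPKM in CLE (log2 difference 1.11, SE 0.17, adjusted p = 0.0120, limma).

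The count in CLE against HFD was unstable. It was 6, 1 or 7 without HFD mouse 12, 15 or 18, and 50, 3 or 4 without CLE mouse 2, 4 or 11. Over all rows, the 1099 calls became 99 to 5047 in these fits. With the same-sum scaling 2 members passed, 0 higher and 2 lower, and 254 of all rows passed, 157 higher and 97 lower.

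In LU against HFD 15 members passed, at 15 loci, 10 higher and 5 lower in LU. Without the 2 that averaged less than 1 FPKM outside their highest group, 13 were left, 9 higher and 4 lower. The 15 were 2.94% of the members, and 3.32% of all tested rows passed, 1.56% higher and 1.76% lower. Non-overlapping groups were found for 27.0% of members and 33.9% of all rows, and the median log2 difference was 0.04 over members and 0.01 over all rows. CUFF.21960.1 was at 4.88, 13.2 and 18 FPKM in LU (log2 difference 2.73, SE 0.64, adjusted p = 0.0464, limma), and CUFF.12219.1 was at 15.3, 13.5 and 3.55 FPKM (log2 difference 1.83, SE 0.43, adjusted p = 0.0466). LU mouse 8 lay close to HFD for CUFF.12219.1, as it did for the Gm3734 rows.

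A pair of short rows in AC102159.1 on chromosome 19 fell in LU. CUFF.13130.1 (chr19:32553287-32553611) was at 8.37, 4.56 and 15.5 FPKM in LU and 58.9, 32.3 and 53.4 FPKM in HFD (log2 difference -2.33, SE 0.38, adjusted p = 0.0141, limma). CUFF.13129.1 (chr19:32552201-32552626), its neighbour, was at 0.840, 0.866 and 0.749 FPKM in LU and 5.55, 3.77 and 5.30 FPKM in HFD, with the lowest adjusted p of the members (log2 difference -1.68, SE 0.23, adjusted p = 0.00775, limma). In CLE, CUFF.13130.1 was at 20.1, 21.0 and 24.2 FPKM.

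CUFF.15391.4 (chr2:156388075-156392990, plus strand) lay opposite Norad, a noncoding RNA that binds Pumilio proteins, and strand alone cannot separate the reads of CUFF.15391.4 from those of Norad. It was at 4.89, 5.53 and 3.63 FPKM in LU and at 0.834 FPKM in HFD mouse 12, with the other HFD mice and the ND mice near 0. Its mean over the other groups was 0.629 FPKM, so it reached the minimum of 1 FPKM through LU, and its difference is given as a description. CLE was split, with mouse 2 at 0.0103 FPKM and mice 4 and 11 at 2.51 and 2.30 FPKM. CUFF.17040.1 over Gm6135 was at 1.64, 0.945 and 0.965 FPKM in LU. The retroelement-named CUFF.1042.1 (Pol, chr1:139994111-140018931) was at 10.6, 17.4 and 22.6 FPKM in LU and 46.5, 42.7 and 34.6 FPKM in HFD.

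The count in LU against HFD was 7, 3 or 7 without HFD mouse 12, 15 or 18, 3 without LU mouse 2 and 1 without LU mouse 3. Without LU mouse 8 it was 16. Over all rows, the 840 calls became 103 to 828 in these fits. With the same-sum scaling 6 members passed, 2 higher and 4 lower, and 478 of all rows passed, 329 higher and 149 lower.

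The extract and its flavone were compared directly. No member passed in CLE against LU (limma, lowest adjusted p = 0.278), 34 members had an unadjusted p under 0.05 beside 4.35% of all tested rows, and 0.0158% of all tested rows passed. Groups did not overlap for 9.39% of members and 7.69% of all rows. The doses differed, 1.5% of a mixture and 0.003% of a compound. The median half-width of the 95% interval of a member's log2 difference was 0.600, so smaller differences were not detectable in the typical member even before adjustment.

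The 94 members named after retroviral or LINE-1 proteins, mobile elements present in many copies, had a median span of 6068 bases and a median level of 2.0 FPKM. Their summed FPKM was 506, 605 and 831 in ND, 598, 480.0 and 1230 in HFD, 884, 1170 and 636 in CLE, and 658, 646 and 580.3 in LU. All groups overlapped. Copies share reads, so the level of a single one is uncertain. The 136 members over lincRNA genes summed to 1324, 1231 and 1257 FPKM in ND and 826, 668 and 650.5 FPKM in HFD, without overlap. This separation came from CUFF.12218.4 alone, and the sums of the others overlapped. The median member was at 1.69, 1.83 and 2.16 FPKM in ND and 2.16, 1.90 and 2.04 FPKM in HFD. HFD and ND were without overlap in 24.2% of all tested rows. The 55 members over protein-coding genes summed to 108, 119 and 112 FPKM in ND and 167, 158 and 151 FPKM in HFD.

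A pair of members spanned microRNA hairpins, Mir802 on the strand of its member, and Mir192 and Mir194-2 on the strand opposite theirs. The mature sequences from RefSeq are printed to identify the hairpins, with the seed, bases 2 to 8, in capitals.
miR-802-5p: uCAGUAACaaagauucauccuu
miR-192-5p: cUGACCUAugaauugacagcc
miR-194-5p: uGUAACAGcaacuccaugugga
CUFF.10409.1 (chr16:93368131-93370900, plus strand) held Mir802 and was at 1.21, 0.932 and 0.994 FPKM in ND and 1.92, 1.94 and 1.02 FPKM in HFD, which overlapped. CUFF.12719.1 (chr19:6262647-6266586) spanned Mir192 and Mir194-2, both abundant in liver, and ran from 1.56 to 2.32 FPKM in ND, 1.94 to 1.98 FPKM in HFD and 2.50 to 4.50 FPKM in CLE, above the HFD mice but without passing the test. CLE and HFD were without overlap in 30.5% of all tested rows. Mature microRNAs are too short for the library kit and were not measured.

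The remaining leading members were the highest of their position class or the longest. CUFF.12587.5 (chr19:4060267-4068780), 698 bases before Gstp3, a glutathione transferase gene, was the highest before a gene start, at 240.3 to 280.3 FPKM in ND and 205 to 238 FPKM in HFD. CUFF.23625.1 (chr7:101547937-101557266), opposite Art2a-ps, was the highest on an opposite strand, at 7.37 to 109 FPKM. The 5 longest members under 100 kb were CUFF.5196.2 over Gm48633 (79884 bases, 3.72 to 5.90 FPKM), CUFF.20182.6 over Tbx3os1 (69947 bases, 0.0185 to 6.02 FPKM), CUFF.15170.1 over 9030622O22Rik (67338 bases, 1.65 to 9.87 FPKM), CUFF.10343.2 over Gm32624 (61645 bases, 0.415 to 1.76 FPKM) and CUFF.7617.2 over Gm35164 (54638 bases, 1.08 to 8.31 FPKM). None of these 7 passed in a comparison. None of the members overlapped albumin, the apolipoprotein, fibrinogen or Mup genes or the other abundant liver genes examined, and 0 rows lay on the mitochondrial chromosome.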

How the data were processed

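Liver RNA of 12 mice was read from both ends, 100 bases each. The submitters' processing notes name CASAVA 1.8.2, Bowtie2 2.2.3, TopHat2 2.0.12 and Cufflinks 2.2.1. The authors deposited FPKM per assembled transcript. The assembly names 30 samples, of which 12 are in the table. The published methods mention DEGES and edgeR scaling factors, and whether the deposited FPKM values include them is not given in the sources used here. Values of 1000000 FPKM and more were deposited to 3 digits. Depth is unknown, and no counting interval can be given. A 0 can be a failed estimate.

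Groups follow the sample labels. Members and lists were chosen with earlier results of these data known. Rows were placed by GENCODE M21 and RefSeq (GRCm38.p6). The comparisons used limma 3.58.1 in R 4.3.3, with variance trend, on log2(FPKM + 1), so fold changes of low rows are understated, over 25296 rows and 12 mice, adjusted at 0.05. In simulated data for these 25296 rows, 162 of 200 rows given a log2 change of 2 passed, as did 13 others. Shares and sums of FPKM use the values that chose the rows and are given without a test. Sequences were aligned with Biopython 1.88.

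Named members are the extreme rows, the 8 highest others, the 5 largest called differences without overlap in each comparison with HFD, the 5 longest under 100 kb and the highest of each position class. Other members were named after their values were seen. Alternatives covered the pseudocount, the filter, scaling, the samples fitted, the variance trend, the definitions of members and extreme rows, and each mouse left out. Each p-value sets a difference between group means against the spread between mice within groups, estimated over all 4 groups in the main fit.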

Additional observations from a re-analysis of the deposited data

How the results depend on the processing

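The number of members called in HFD against ND, 40, was 14 with no filter on low values, 17 with a mean of at least 5 FPKM and 24 with each library scaled to the same sum. It was between 15 and 26 with 1 mouse left out. In CLE against HFD the 17 became 9 with a pseudocount of 0.1, 1 with no filter, 5 with a mean of at least 5 FPKM, and 2 with the same-sum scaling as with these groups fitted alone. The range with 1 mouse left out was 1 to 50. In LU against HFD the 15 became 1 with no filter and 6 with a mean of at least 5 FPKM or the same-sum scaling, and ranged from 1 to 16 with 1 mouse left out. With a mean of at least 5 FPKM only 98 members are tested, and with no filter the adjustment runs over 137681 rows. Other causes were not tested. CLE against LU gave 0 members in every alternative.

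Of 206 recomputed log2 differences of the members with the largest calls, 91 no longer passed. All kept their direction, but these members were picked for groups without overlap, so leaving out 1 mouse could not reverse it. The filter, the variance trend and fitting the 2 groups alone do not change the difference itself. The kept direction is therefore no check of these results. No paired analysis was possible because the groups held different mice, so a number that recurs in another group does not mark the same mouse. The unknown depth limits what can be said of rows near 1 FPKM.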
